A study of Mus musculus with 18 samples.

Results

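The genes described here carry glucose into the cell and run the central reactions of glycolysis: the glucose transporters Slc2a1 and Slc2a3 and the enzymes Gpi1, Pfkl, Pfkm, Aldoa, Gapdh, Pgk1, Eno1 and Pkm. They were chosen by symbol, and all 10 were found among the 768 genes of a NanoString nCounter panel for metabolic pathways. This assay counts colour-coded probes bound to single RNA molecules and uses no amplification. Tumors grew from TUBO cells, 1 mouse mammary carcinoma line that carries the HER2/neu oncogene, in female mice of strain BALB/c, and were collected at a common time after 3 weeks of treatment. The titles name 4 arms, which are HER2 DC1+aSEMA4D (called the combination here), HER2 DC1, anti-Semaphorin4D and Untreated Control. HER2 DC1 are dendritic cells given into the tumor, and anti-Semaphorin4D is an antibody that blocks semaphorin 4D. Each arm has tumors titled Treated and tumors titled Untreated, which makes 8 groups, with 3 samples in each combination group and 2 in every other group. The labels do not tie samples to mice, so p-values measure only the spread between these samples. The labels do not say what sets a treated tumor apart from an untreated one in the control arm, or whether both kinds came from the same mice.

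Glucose enters cells through facilitative transporters of the Slc2a family, of which Slc2a1 (GLUT1) serves most tissues and Slc2a3 (GLUT3) is known from neurons and activated leukocytes. Glycolysis then converts it to pyruvate. Hexokinase traps glucose in the cell, Gpi1 isomerises the product, phosphofructokinase commits it to the pathway, and aldolase splits the sugar. Gapdh, Pgk1, Eno1 and Pkm carry out the later steps, of which those of Pgk1 and Pkm yield ATP. In tumors many of these genes are known targets of the hypoxia-inducible factor, and activated immune cells also raise them.

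Promoter sequence is shown for 3 members whose values diverged in the comparisons below. They are Pgk1, which moved with Pfkl, Aldoa, Eno1 and Pkm, Slc2a1, which did not follow it across groups, and Pfkm, the most regularly called member. Each window is the 250 bases before a RefSeq gene start in GRCm38.p6, on the + strand, at chrX:106186850-106187099 for Pgk1, chr4:119108495-119108744 for Slc2a1 and chr15:98092339-98092588 for Pfkm. Capitals mark ACGTG and GCGTG on either strand (CACGT and CACGC when read on the other one), the core letters of the hypoxia response element.
Pgk1: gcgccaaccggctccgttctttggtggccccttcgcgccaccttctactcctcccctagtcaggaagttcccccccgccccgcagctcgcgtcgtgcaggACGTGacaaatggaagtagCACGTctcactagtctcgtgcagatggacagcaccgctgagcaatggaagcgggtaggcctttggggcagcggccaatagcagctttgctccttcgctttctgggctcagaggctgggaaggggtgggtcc
Slc2a1: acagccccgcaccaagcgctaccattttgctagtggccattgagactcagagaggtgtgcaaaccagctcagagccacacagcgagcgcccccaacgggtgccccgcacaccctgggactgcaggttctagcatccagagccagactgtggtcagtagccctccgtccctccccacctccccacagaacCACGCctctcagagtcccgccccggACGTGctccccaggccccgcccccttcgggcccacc
Pfkm: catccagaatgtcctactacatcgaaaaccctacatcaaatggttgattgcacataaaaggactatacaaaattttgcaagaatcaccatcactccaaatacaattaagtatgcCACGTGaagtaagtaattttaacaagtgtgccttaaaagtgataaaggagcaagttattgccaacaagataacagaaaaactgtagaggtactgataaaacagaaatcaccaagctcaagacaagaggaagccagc
The Pgk1 and Slc2a1 windows each held 2 separate matches, and the 2 matches of the Pfkm window shown were both strands of 1 site. Pfkm has further windows, not shown. That at chr15:98108221-98108470 held 2 separate matches, that at chr15:98108306-98108555 held 1 and that at chr15:98111810-98112059 held 0. Among 17 windows of 9 members, 13 (76.5%) held at least 1 match, against 48.5% of 747 windows of panel genes and 38.6% of 32851 windows of all genes. Several windows of Eno1, Aldoa and Pfkm overlap each other, and median GC content was 60.4% in the members' windows, 57.6% in the panel's and 52.4% in all. The Gpi1 window held no match. These are letters in a window and not binding sites.

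The deposited values are log2(scaled count + 1), and all levels and differences below are on that scale. Panel counts ran from 203509 in untreated control replicate 2 and 238079 in untreated HER2 DC1 replicate 1 to 989309. A gene counted as measured in a sample when it lay more than 2 SD above the average of the negative control probes there, a limit between 4.95 and 5.85 (log2). Of the members, 8 exceeded the limit in all 18 samples, Gpi1 in 16 and Slc2a3 in 1. Of the 18 columns 12 were scaled by a factor and 6 held whole numbers, which are, in each kind of tumor, replicate 1 of control, replicate 2 of HER2 DC1 and replicate 2 of anti-Semaphorin4D. Every combination sample is in a scaled column. Since these are bulk tumors, fewer cells of a type and less RNA per cell cannot be told apart.

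**Figure D1:**
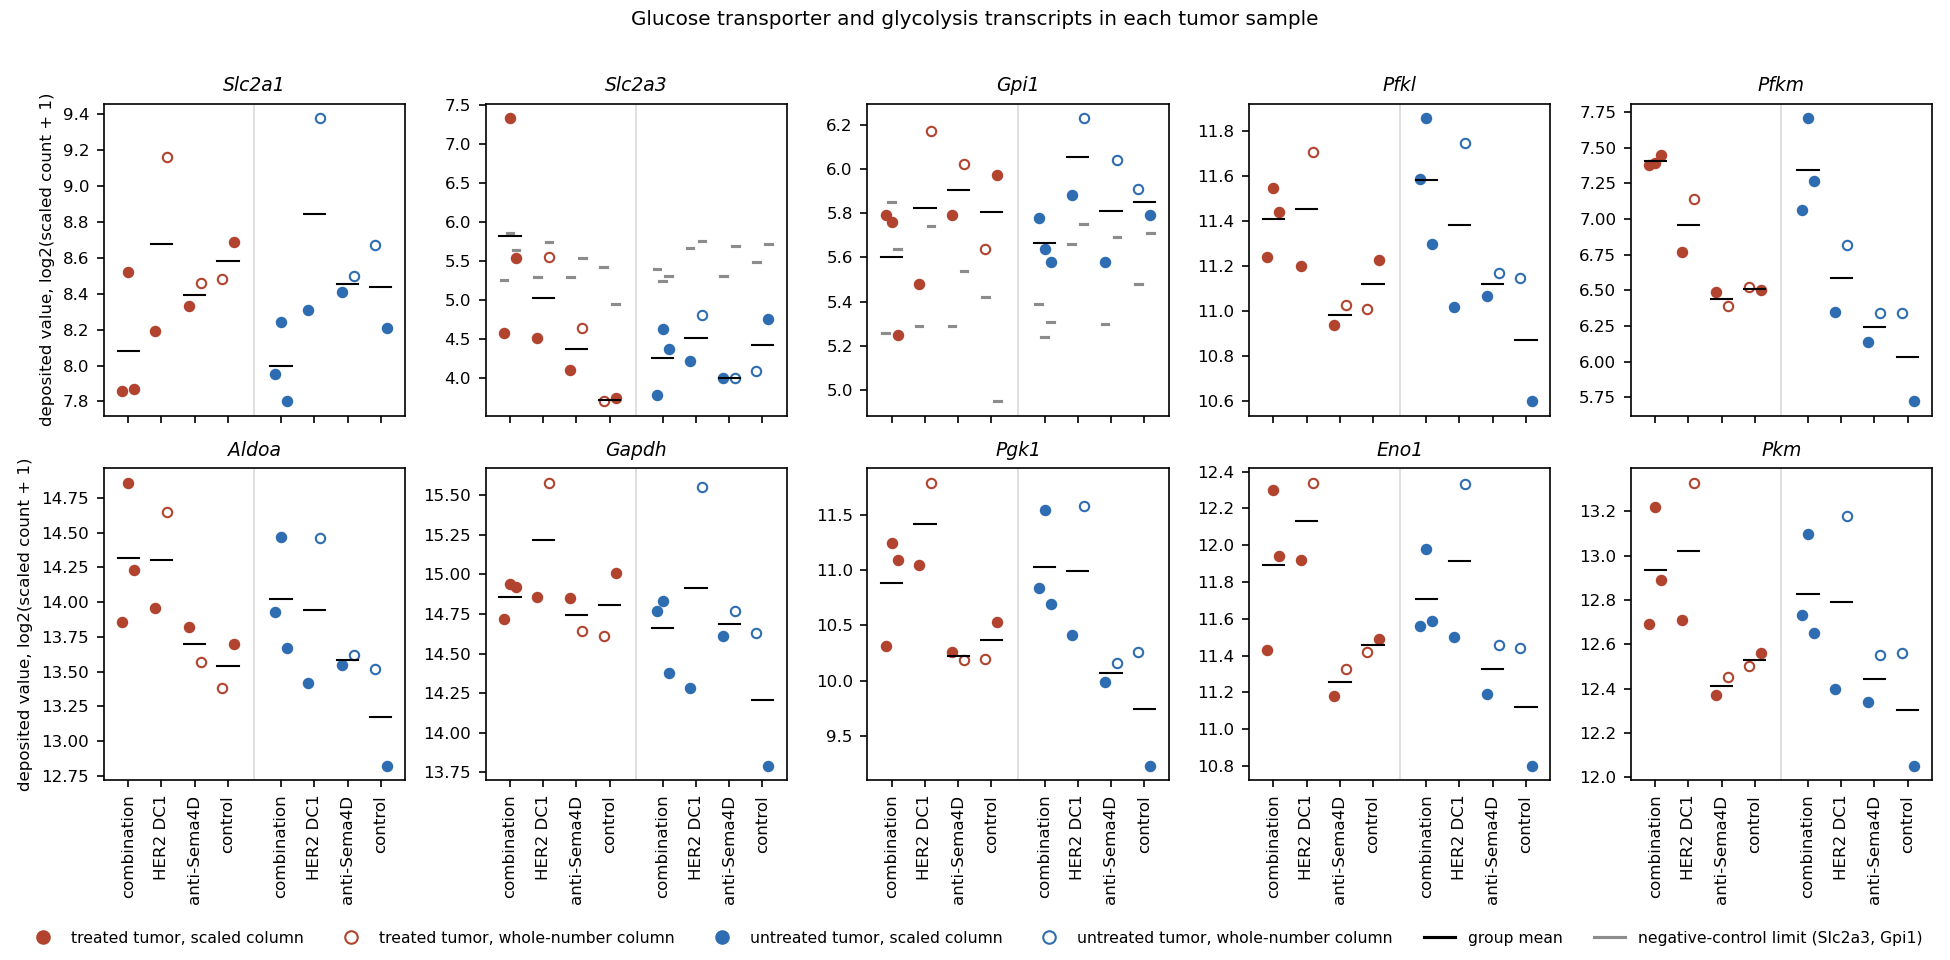
Deposited level (log2 of scaled count plus 1) of each gene in each of 18 tumor samples, by arm, with treated tumors on the left and untreated tumors on the right of each panel. Points are samples, open where the column held whole numbers, black bars are group means, and grey ticks are the negative-control limits for Slc2a3 and Gpi1. Pfkm lies between 7.06 and 7.71 in all 6 combination samples and between 5.72 and 6.52 in the 4 controls.

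The combination was first set against control in treated tumors, and 2 of the 10 genes passed the test, both higher: the muscle-type phosphofructokinase Pfkm and the transporter Slc2a3. Across the panel 38.8% of genes were called in this comparison, 35.4% higher and 3.39% lower (limma, Benjamini-Hochberg over 768 genes, threshold 0.05). The members' share was below that of the panel. Their median difference was 0.42, against 0.54 for all genes. In untreated tumors 1 of the 10, Pfkm, was called higher, where 16.8% of the panel was called, 15.8% higher and 1.04% lower. The members' median difference there was 0.56, against 0.45 for all genes. Because the median gene was itself higher in the combination, the same differences are also given after each sample was centred on its panel median, which removed 0.71 in treated and 0.47 in untreated tumors, or on 20 housekeeping genes, which removed 0.26 in both.

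Pfkm encodes 1 of the phosphofructokinase subunits and lies at chr15:98092589-98132447 (GRCm38.p6). Its level was 7.38, 7.39 and 7.45 in the treated combination tumors, against 6.52 and 6.50 in the treated controls. Group means were 7.41 ± 0.04 (SD, n = 3) and 6.51 ± 0.02 (n = 2), and the ranges did not overlap. The difference was 0.90 (SE 0.24, adjusted p = 0.0120, limma). In untreated tumors Pfkm stood at 7.06, 7.71 and 7.27 in the combination, against 6.34 and 5.72 in control. The difference there was 1.32 (SE 0.24, adjusted p = 0.00819), and again every combination sample lay above both controls. Control replicate 2, at 5.72, was barely above its negative-control limit of 5.71. The difference between these 2 effects, treated minus untreated, was -0.42 (95% interval -1.16 to 0.32, adjusted p = 0.600). In treated tumors the call ended with median centring (0.19, adjusted p = 0.518), among scaled columns only (adjusted p = 0.120), and without control replicate 1 or 2 (adjusted p = 0.0688 and 0.0695). In untreated tumors it ended without control replicate 2, the sample with the fewest counts (1.01, adjusted p = 0.129), and with only the 2 groups in the fit (adjusted p = 0.0703).

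Pfkl, the liver-type subunit of the same enzyme at chr10:77986947-78009807, did not pass. It was at 11.24, 11.55 and 11.44 in the treated combination tumors, against 11.01 and 11.23 in the treated controls, a difference of 0.29 (SE 0.26, adjusted p = 0.405) that turned to -0.42 with median centring. The untreated tumors had 11.59, 11.86 and 11.30 in the combination, against 11.15 and 10.60 in control, a difference of 0.70 (SE 0.26, adjusted p = 0.0756). The groups did not overlap in either kind of tumor, by 0.01 in treated ones. The share of panel genes whose groups did not overlap was not counted, here or where other members are said not to overlap.

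The ratio of Pfkm to Pfkl within a sample does not depend on the sample's scaling factor. It was chosen after the values were seen and has no test, and only its differences between samples can be read, since the probes differ. Its log2 was -3.85, -4.16 and -3.99 in treated combination tumors, against -4.49 and -4.73 in treated controls. For untreated tumors the values were -4.53, -4.15 and -4.02 in the combination, against -4.81 and -4.88 in control. The -4.88 is from control replicate 2, where Pfkm was barely above its limit. Every combination sample was thus above every control of its kind. Over the HER2 DC1 and anti-Semaphorin4D groups it ran from -4.93 to -4.44.

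Slc2a3, at chr6:122727809-122802363, exceeded its negative-control limit in 1 of 18 samples. It stood at 4.58, 7.33 and 5.54 in the treated combination tumors, against 3.70 and 3.74 in the treated controls. Replicate 2 alone was above the limit. The test was of the deposited difference of 2.10 (adjusted p = 0.0154, limma), in which the control values are background. With the control taken at its limits the mean of the combination was 1.55-fold higher. This is no firm bound, since the other combination samples were below the limit too. The call held without combination replicate 2 (adjusted p = 0.0369), with no sample above the limit then left, and ended without control replicate 1 or 2 (adjusted p = 0.0853 and 0.0767), with only the 2 groups in the fit (adjusted p = 0.101) and among scaled columns only (adjusted p = 0.192). In untreated tumors all samples were below the limit, at 3.78, 4.63 and 4.37 in the combination and 4.09 and 4.75 in control. No fold is given there.

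Slc2a1, at chr4:119108745-119137330, stood lower in the combination than in control, but neither difference passed. In treated tumors it was at 7.86, 8.52 and 7.87 in the combination, against 8.48 and 8.69 in control, a difference of -0.50 (95% interval -1.25 to 0.24, adjusted p = 0.267). In untreated tumors it was at 7.95, 8.24 and 7.80 in the combination, against 8.67 and 8.21 in control, a difference of -0.44 (95% interval -1.19 to 0.31, adjusted p = 0.375). One combination sample overlapped the controls in each kind of tumor. With median centring the treated difference became -1.21 and passed (adjusted p = 0.00891). Gpi1, the glucose-6-phosphate isomerase at chr7:34201327-34230336, lay close to its limit throughout, between 5.25 and 6.23 over the 18 samples. Its differences were -0.21 in treated and -0.18 in untreated tumors (adjusted p = 0.538 and 0.622), and with median centring the treated one became -0.92 (adjusted p = 0.0164).

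**Figure D2:**
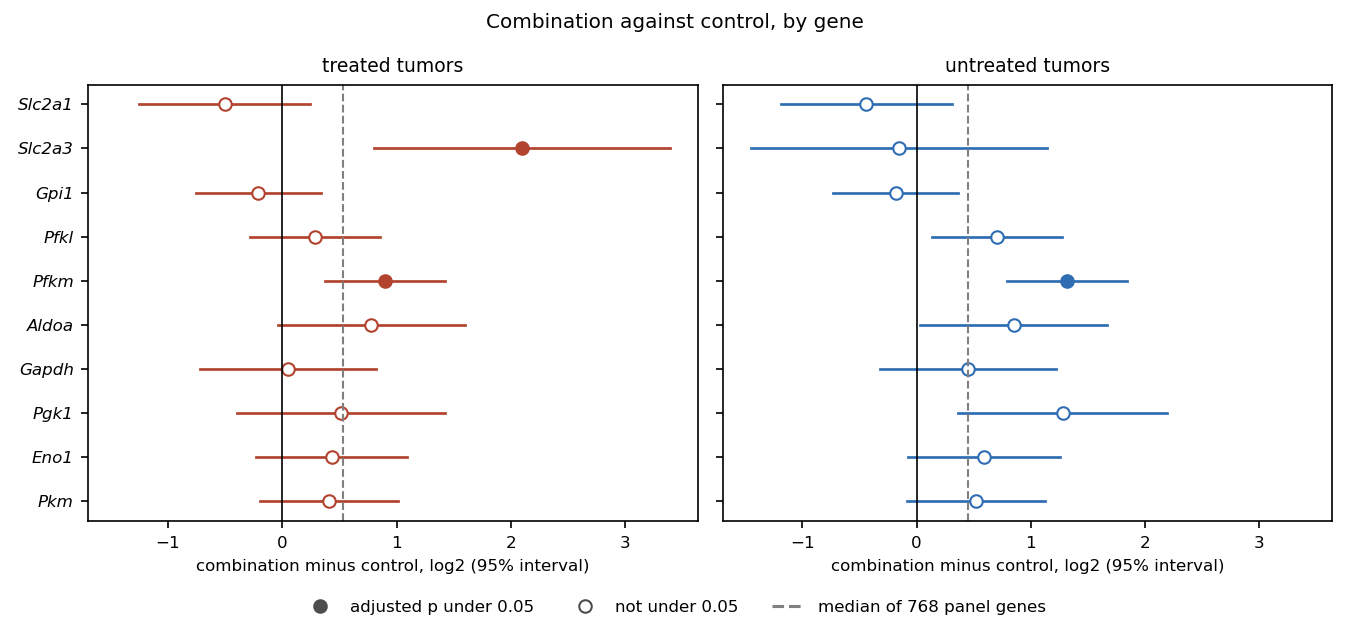
Combination minus control (log2) with its 95% interval from limma for each gene, in treated tumors on the left and untreated tumors on the right. Filled points have an adjusted p under 0.05, and the dashed line is the median of 768 panel genes, 0.54 in treated and 0.45 in untreated tumors. Pfkm is filled in both panels and Slc2a3 in treated tumors.

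The enzymes from aldolase to pyruvate kinase were measured far above the limit, and none passed. Aldoa, the main aldolase outside liver (chr7:126795234-126800994), was at 13.86, 14.86 and 14.23 in treated combination tumors, against 13.38 and 13.70 in treated controls. The difference was 0.78 (SE 0.38, adjusted p = 0.121), and in untreated tumors it was 0.85 (SE 0.38, adjusted p = 0.119). The groups did not overlap in either kind. Pgk1, the phosphoglycerate kinase at chrX:106187100-106203699, stood at 10.84, 11.54 and 10.69 in untreated combination tumors, against 10.26 and 9.23 in untreated controls. This difference of 1.28 (SE 0.42) narrowly missed the threshold (adjusted p = 0.0529, limma). It passed with a pseudocount of 20 (adjusted p = 0.0480) and with genes below the limit left out (0.0438). It also passed with a trended and robust prior (0.0404) and with the kind of column as a term (0.0232). It did not pass with median centring, with housekeeping centring or with only the groups compared. The difference was 1.79 without control replicate 1 and 0.76 without control replicate 2.

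In treated tumors Pgk1 was at 10.31, 11.24 and 11.09 in the combination, against 10.20 and 10.53 in control, and the difference of 0.51 (SE 0.42, adjusted p = 0.350) was within the spread of the samples. Eno1, an enolase at chr4:150236708-150248879, and Pkm, the pyruvate kinase at chr9:59656576-59679372, differed by 0.43 and 0.41 in treated and by 0.59 and 0.52 in untreated tumors (adjusted p from 0.173 to 0.281). Gapdh, the dehydrogenase at chr6:125161852-125166467 that is often used as a reference gene, was at 14.72, 14.94 and 14.92 in treated combination tumors, against 14.61 and 15.01 in treated controls. Its difference was 0.05 (95% interval -0.72 to 0.82, adjusted p = 0.916), an interval that leaves room for changes of over 1.5-fold in either direction, and 0.45 in untreated tumors (95% interval -0.32 to 1.22, adjusted p = 0.379). With median centring the treated differences of Gapdh, Pgk1, Eno1 and Pkm turned to -0.66, -0.19, -0.28 and -0.30, and with housekeeping centring that of Gapdh turned to -0.21.

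**Figure D3:**
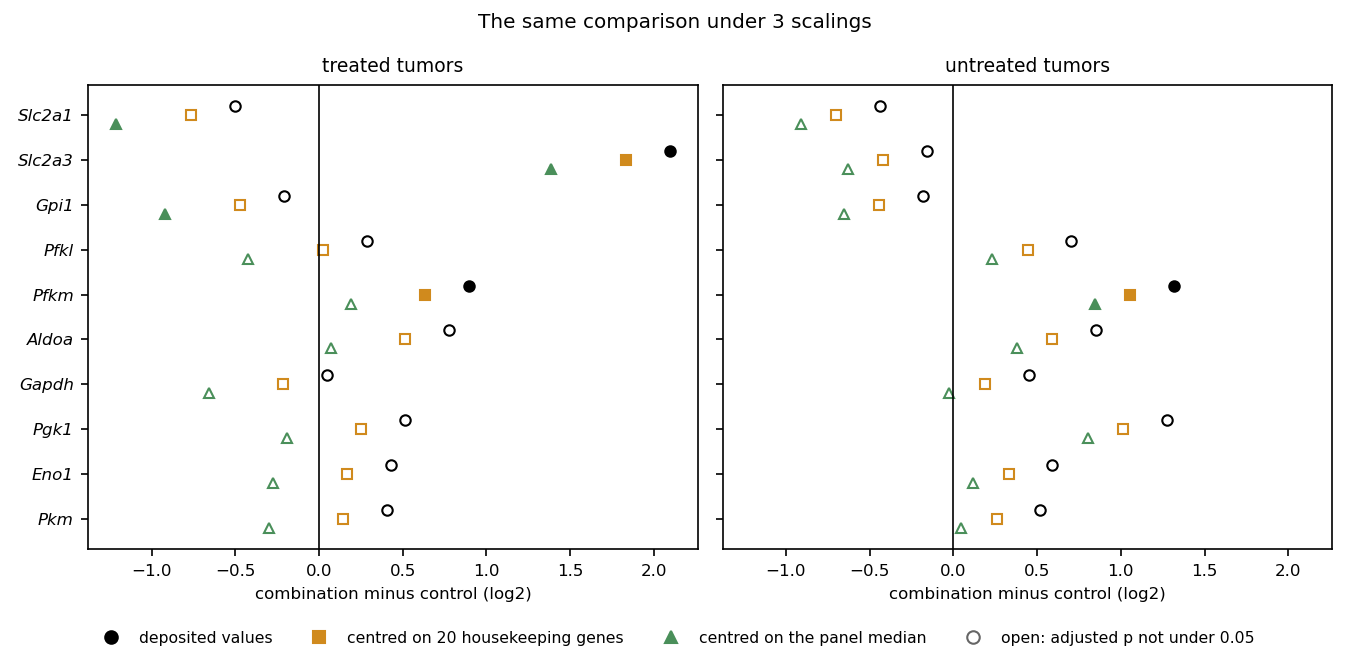
Combination minus control (log2) of each gene on the deposited values, after centring each sample on 20 housekeeping genes and after centring on the panel median, in treated tumors on the left and untreated tumors on the right. Filled symbols have an adjusted p under 0.05. Pfkm in treated tumors moves from 0.90 to 0.19 with median centring, while Slc2a1 moves from -0.50 to -1.21.

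The anti-Semaphorin4D arm was the other arm from which the combination differed in a member. In treated tumors Pfkm was at 7.38, 7.39 and 7.45 in the combination, against 6.49 and 6.39 with anti-Semaphorin4D. It was 1 of 10 members called, where 36.8% of the panel was called (34.5% higher and 2.34% lower), with a difference of 0.97 (SE 0.24, adjusted p = 0.00905, limma). In untreated tumors it was at 7.06, 7.71 and 7.27 in the combination, against 6.14 and 6.34 with anti-Semaphorin4D, a difference of 1.11 (SE 0.24, adjusted p = 0.0165), and was again the 1 member called, where 12.5% of the panel was called (12.1% higher and 0.391% lower). These comparisons use the same combination samples as those with control. With median centring both calls ended (0.24 with adjusted p = 0.415 in treated tumors, 0.64 with adjusted p = 0.0985 in untreated ones). They also ended among scaled columns only (adjusted p = 0.103 and 0.185), in treated tumors without either anti-Semaphorin4D sample (adjusted p = 0.0544 and 0.0572) and in untreated tumors with only the 2 groups in the fit (adjusted p = 0.0608), without either anti-Semaphorin4D sample (0.218 and 0.0584) and without combination replicate 2 or 3 (0.0739 and 0.0504).

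No member passed when the combination was set against HER2 DC1, where 1.82% of the panel was called in treated tumors (1.69% higher and 0.13% lower) and 0% in untreated ones. At an unadjusted p under 0.05 there were 0 members and 205 genes in treated and 2 members and 136 genes in untreated tumors. Pfkm was at 7.38, 7.39 and 7.45 in treated combination tumors, against 6.77 and 7.14 with HER2 DC1, a difference of 0.45 (adjusted p = 0.242). The untreated difference was 0.76 (adjusted p = 0.170), from levels of 7.06, 7.71 and 7.27 in the combination, against 6.35 and 6.82 with HER2 DC1. All combination samples lay above all HER2 DC1 samples of their kind. Slc2a1 differed by -0.59 in treated and -0.85 in untreated tumors (adjusted p = 0.284 and 0.244), with HER2 DC1 at 8.19 and 9.16 in treated and 8.31 and 9.38 in untreated tumors.

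Neither single agent gave a call against control, among members or in the panel (0% in each of the 4 comparisons). At an unadjusted p under 0.05 there were 1 member and 109 genes for HER2 DC1 in treated tumors, 2 members and 70 genes for HER2 DC1 in untreated tumors, 0 members and 11 genes for anti-Semaphorin4D in treated tumors, and 0 members and 25 genes for it in untreated tumors. With HER2 DC1 the members' median difference was 0.47 in treated and 0.53 in untreated tumors, against panel medians of 0.35 and 0.23. Median centring takes 0.42 and 0.22 off each of these differences, and in treated tumors those of Slc2a1, Gpi1, Pfkl and Gapdh, at 0.09, 0.02, 0.34 and 0.41, are then below 0. The largest unadjusted signals among the enzymes were those of Pgk1, at 1.05 in treated and 1.25 in untreated tumors (adjusted p = 0.349 and 0.516). With anti-Semaphorin4D the members' median was -0.09 in treated and 0.21 in untreated tumors, against 0.02 and 0.06 for the panel.

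The HER2 DC1 values rest on samples that differ widely. Replicate 2 exceeded replicate 1 in all 10 members in both kinds of tumor, by 0.37 for Pfkm up to 1.04 for Slc2a3 in treated and by 0.35 for Gpi1 up to 1.27 for Gapdh in untreated tumors. The panel median differed by 0.03 and 0.21 between the same samples. Treated HER2 DC1 replicate 2 had the highest value of all 18 samples for Gapdh (15.58), Pgk1 (11.79), Eno1 (12.34) and Pkm (13.33). Untreated HER2 DC1 replicate 2 had it for Slc2a1 (9.38) and Gpi1 (6.23). The 10 members took 11.4% and 12.1% of panel counts in these samples and between 5.71% and 8.89% in the other 16. Transcripts outside the members that respond to low oxygen were high there too: Vegfa, a vascular growth factor, ranked 1 and 2 of 18, the carbonic anhydrase Car9 2 and 1, and the lactate dehydrogenase Ldha 1 and 3. Both samples sit in whole-number columns. In the other 4 columns of that kind no member reached its highest value. The part of the kind of column in these levels was not tested. At the low end, untreated control replicate 2, with the fewest counts, had the lowest value for Pfkl, Pfkm, Aldoa, Gapdh, Pgk1, Eno1 and Pkm. Untreated HER2 DC1 replicate 1, with the next fewest counts (238079), ranked from 7 of 18 (Gpi1) to 17 (Gapdh) among the members.

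Treated tumors were also set against untreated tumors within each arm, and no member was called. Of the panel 9.11% was called in the combination arm (8.33% higher and 0.781% lower) and 0% in each of the HER2 DC1, anti-Semaphorin4D and control arms. At an unadjusted p under 0.05 there were 1, 0, 0 and 0 members and 240, 100, 14 and 50 genes in these arms. Slc2a3 in the combination arm stood at 4.58, 7.33 and 5.54 in treated against 3.78, 4.63 and 4.37 in untreated tumors, with treated replicate 2 alone above the limit. The deposited difference of 1.56 did not pass (adjusted p = 0.0818, limma). With the untreated tumors taken at their limits the mean of the treated ones was 1.41-fold higher. This is no firm bound, since the other treated samples were below the limit too. When 1 sample was left out the adjusted p lay between 0.0082, without treated replicate 1, and 0.32, without treated replicate 2. No effect of the combination differed between the kinds of tumor by the test of that difference, which called 0% of the panel (1 member and 81 genes at an unadjusted p under 0.05). It was -0.76 for Pgk1 (adjusted p = 0.589), and for Slc2a3, mostly below the limit, its adjusted p was 0.448.

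Across samples Pfkl, Aldoa, Pgk1, Eno1 and Pkm moved as a block on the deposited values. Over the 18 samples Pearson's r between Pfkl, Aldoa, Pgk1, Eno1 and Pkm was between 0.87 (Pfkl with Eno1) and 0.96 (Eno1 with Pkm). Gapdh had r between 0.75 and 0.81 with these 5, and Pfkm between 0.70 (with Eno1) and 0.80 (with Pfkl). For deviations from group means r was between 0.89 and 0.95 among the 5. These are descriptions over samples that share a scaling factor per column. After median centring r among the 5 ran from 0.59 (Pfkl with Aldoa) to 0.89 (Pfkl with Pkm). Without the 3 samples at the extremes, replicate 2 of both HER2 DC1 groups and of the untreated control, chosen after their values were seen, it ran from 0.73 (Pfkl with Eno1) to 0.92 (Aldoa with Pkm) on the deposited values of 15 samples. Gapdh then had r between 0.39 (with Pfkl) and 0.61 (with Aldoa), so its link to the block rested in part on those 3 samples. Pfkm then had r between 0.71 (with Eno1) and 0.85 (with Pkm) with the 5. After median centring of the 18 samples Pfkm had r between 0.11 (with Eno1) and 0.51 (with Pgk1).

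On the deposited values Slc2a1 followed the enzymes less closely over all samples than within groups. Its r with Pfkl, Aldoa, Pgk1, Eno1 and Pkm was between 0.26 and 0.41 over 18 samples, but between 0.86 and 0.96 for deviations from group means. After median centring r over the 18 samples was 0.62 with Pfkl, 0.34 with Aldoa, 0.25 with Pgk1, 0.61 with Eno1 and 0.75 with Pkm, so the low values for Pfkl, Eno1 and Pkm depended on the scaling. Without the same 3 samples r over the remaining 15 was between -0.34 (with Pfkl) and -0.18 (with Eno1). Slc2a3, mostly below the limit, had r up to 0.67 (with Aldoa). Gpi1 had r = 0.75 with Slc2a1 and up to 0.36 (with Gapdh) with the later enzymes over the 18 samples. After median centring these were 0.87 with Slc2a1, 0.56 with Pfkl, 0.60 with Gapdh and 0.54 with Pkm. For deviations from group means they were 0.69, 0.53, 0.55 and 0.57.

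**Figure D4:**
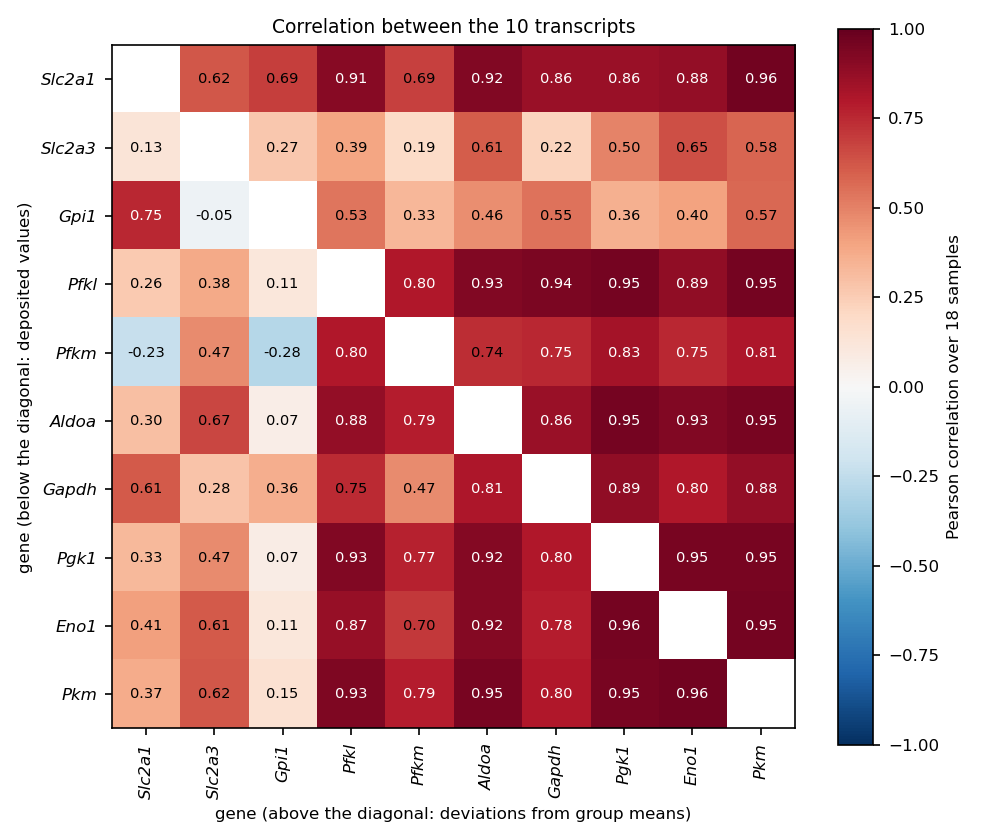
Pearson correlation between the 10 genes over 18 samples, below the diagonal for deposited log2 values and above it for deviations from group means. The block of Pfkl, Aldoa, Pgk1, Eno1 and Pkm is between 0.87 and 0.96 below the diagonal, and Slc2a1 with Pkm is 0.37 below it and 0.96 above it.

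The same split appears in the log2 ratio of Pgk1 to Slc2a1 within a sample, which was chosen after the values were seen and has no test. It was 2.45, 2.73 and 3.22 in treated combination tumors, against 1.73 and 1.83 in treated controls. Untreated tumors had 2.89, 3.30 and 2.88 in the combination, against 1.59 and 1.02 in control. With HER2 DC1 it was 2.86 and 2.63 in treated and 2.10 and 2.21 in untreated tumors. With anti-Semaphorin4D it was 1.93 and 1.73 in treated and 1.58 and 1.66 in untreated tumors. Samples of the combination and of HER2 DC1 therefore lay above those of anti-Semaphorin4D and control, with no overlap, and this held for HER2 DC1 replicate 1 as for replicate 2.

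**Figure D5:**
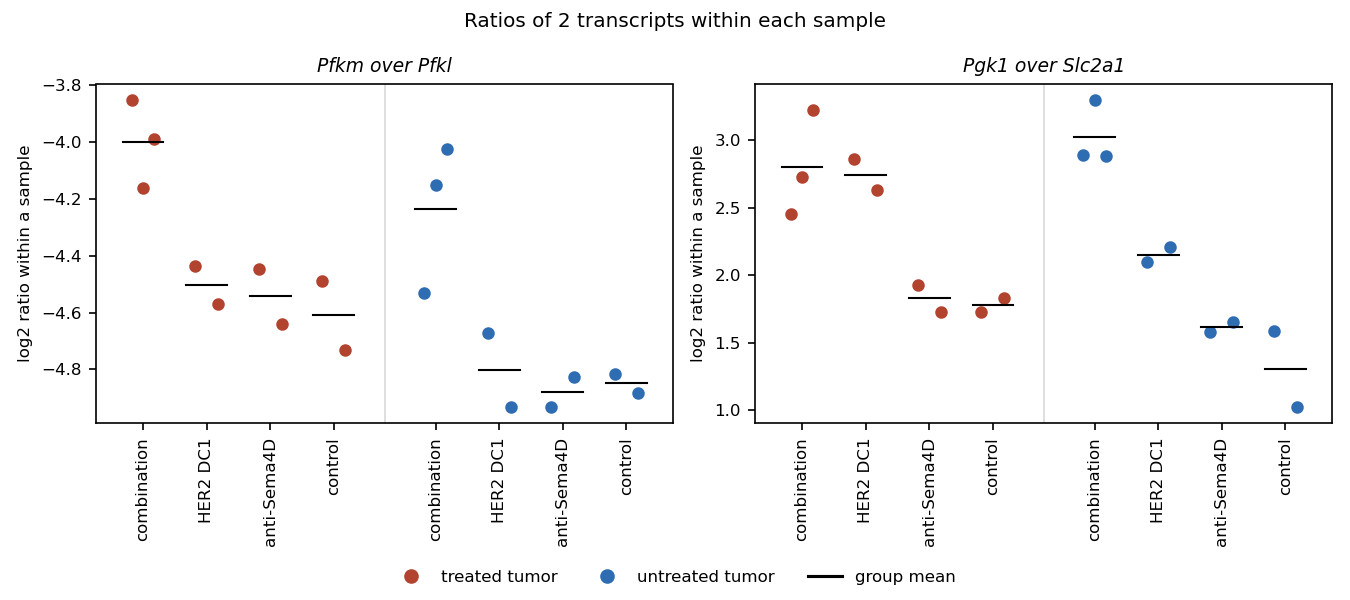
Log2 ratio of Pfkm to Pfkl (left) and of Pgk1 to Slc2a1 (right) within each sample, by arm, for treated and untreated tumors, with black bars at group means. The mean ratio of Pfkm to Pfkl is highest in the combination of each kind (-4.00 in treated and -4.24 in untreated tumors), and that of Pgk1 to Slc2a1 is at least 2.10 in every combination and HER2 DC1 sample and at most 1.93 in the rest.

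The panel genes most like each member over the 18 samples, among those above the limit in every sample, were mostly the other enzymes for Pfkl, Aldoa, Pgk1, Eno1 and Pkm. Pfkm was closest to Akt1s1 (r = 0.96), a regulatory subunit of mTOR complex 1, and to the ubiquitin ligase Itch (0.96). Srebf1, a transcription factor of lipid synthesis, followed (0.96). With Pfkl, Aldoa, Pgk1, Eno1 and Pkm the r of Pfkm was between 0.70 and 0.80. All these are correlations of deposited values, and the closest genes were not sought after median centring. Gapdh was closest to Hprt (0.91), Ldha (0.90) and Car9 (0.86). Slc2a1 was closest to Vegfa (0.70), Ass1 (0.68), an enzyme of arginine synthesis, and Glrx (0.65), a thiol-disulfide oxidoreductase. After Slc2a1 itself, Gpi1 was closest to Sap130 and Ppargc1a (both 0.52). Slc2a3, itself above the limit in 1 of 18 samples, was closest to Cbl, Cdk9 and Pla2g15 (0.86, 0.85 and 0.85). By rank its correlations with these genes were lower (Spearman 0.66, 0.51 and 0.61).

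Other glycolysis genes were read from a list of 32, of which 19 were on the panel. In treated tumors 7 were called higher in the combination than in control and 0 lower, and the list's median was 0.51. On the panel 35.4% of genes were called higher and 3.39% lower there, with a median of 0.54, so the list's share was close to that of the panel. The blood-cell hexokinase Hk3 stood at 7.81, 10.21 and 8.79 in the combination, against 4.46 and 4.69 in control, below the limit there, and was at least 13.5-fold higher (adjusted p = 0.000946). Hk2, the inducible hexokinase, was at 9.24, 10.08 and 9.45, against 8.05 and 8.09 in control, a difference of 1.52 (adjusted p = 0.0139) that became 0.81 with median centring (adjusted p = 0.0872). Slc16a3 (MCT4), which exports lactate, was at 6.91, 10.82 and 9.03 in the combination, against 5.67 and 5.68 in control. Its difference of 3.24 had an adjusted p of 0.00723, and 0.0798 with only the 2 groups in the fit. The Hk2 call also ended without control replicate 1 or 2 (adjusted p = 0.0802 and 0.0703) and without combination replicate 2 (0.0558), while Hk3 and Slc16a3 passed whichever sample was left out.

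Slc2a6, a further member of the transporter family, was called higher on the deposited values (adjusted p = 0.00257). With the control taken at its limits the mean of the combination was 1.71-fold higher. This is no firm bound, since 2 of 3 combination samples were above the limit. Tigar, which lowers fructose-2,6-bisphosphate, was 0.80 higher (adjusted p = 0.0289). The Tigar call ended with median centring (0.09, adjusted p = 0.725), with housekeeping centring (0.102) and without control replicate 1 or 2 or combination replicate 2 or 3 (0.0529 to 0.168). Fbp1 and Pgam2 passed with both groups below the limit, so no fold is given. In untreated tumors 3 of the 19 were called higher, where 15.8% of the panel was called higher, again a share close to that of the list. The list's median was 0.34, against 0.45 for all genes. The 3 were Hk3, at least 3.81-fold (adjusted p = 0.00819), Hk2, by 1.44 (adjusted p = 0.0376), and Slc2a6 (adjusted p = 0.0213). For Slc2a6 the mean of the combination, with 2 of 3 samples above the limit, was 1.21-fold higher than the limits of the control, again no firm bound. All 3 of these calls ended without control replicate 2 (adjusted p = 0.0816 for Hk3, 0.326 for Hk2 and 0.138 for Slc2a6), those of Hk2 and Slc2a6 also without combination replicate 2 (0.129 and 0.0891) or 3 (0.0925 and 0.0658), and that of Slc2a6 without control replicate 1 (0.0592). The Hk2 call further ended with median and with housekeeping centring (adjusted p = 0.109 and 0.0790), and that of Slc2a6 with housekeeping centring (0.0529).

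Of a list of 10 genes that regulate glycolysis genes or belong to the hypoxia response, 7 were on the panel. Mtor, Vhl and Akt1 were called higher in the combination in both kinds of tumor. On the whole panel 35.4% of genes were called higher in treated and 15.8% in untreated tumors, and the list was not tested against the panel. The kinase Mtor differed by 1.53 in treated and 1.55 in untreated tumors (adjusted p = 0.00207 and 0.00819). Vhl, which marks the hypoxia-inducible factor for destruction, differed by 1.19 and 1.14 (adjusted p = 0.00723 and 0.0231), and the kinase Akt1 by 0.91 and 0.76 (adjusted p = 0.00928 and 0.0460). With median centring the calls of Vhl and Akt1 ended in both kinds (adjusted p = 0.114 and 0.0903 for Vhl, 0.369 and 0.327 for Akt1), and with housekeeping centring in untreated tumors (0.0511 and 0.158). In treated tumors that of Vhl ended without control replicate 1 (0.0784) and that of Akt1 without control replicate 2 (0.0841), and in untreated tumors all 3 ended without control replicate 2 (0.128 for Mtor, 0.231 for Vhl and 0.314 for Akt1). Without combination replicate 2 or 3 the untreated calls of Vhl (0.0998 and 0.0658) and Akt1 (0.159 and 0.113) ended too, and that of Akt1 without control replicate 1 (0.0544) and without HER2 DC1 replicate 2 of both kinds (0.0542). With only the 2 groups in the fit the treated calls of Akt1 (0.0741) and Tigar (0.0729) ended, as did the untreated ones of Mtor, Vhl, Akt1, Hk2, Hk3 and Slc2a6 (0.0621 to 0.117). Among scaled columns only, the treated calls of Mtor, Vhl, Akt1, Hk2, Hk3, Slc2a6, Slc16a3 and Tigar ended (0.101 to 0.221), as did the untreated ones of Vhl, Akt1, Hk3 and Slc2a6 (0.0643 to 0.165). Hif1a, Myc, Vegfa and Pik3ca did not pass in either kind (adjusted p from 0.0867 to 0.843 in treated tumors).

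In treated tumors the marker sums of other cells were higher in the combination than in control, except those of B cells and skeletal muscle. The summed scaled count of 12 T cell markers was between 1003 and 3525 in treated combination tumors, with 10 of 12 above the limit in every sample and Cd8a and Cd8b1 below it, and between 327 and 336 in treated controls. For replicates 1, 2 and 3 of the combination it was 1003, 3525 and 1667, the same order as Slc2a3 at 4.58, 7.33 and 5.54. That order was not particular to T cell markers. The panel median had it too, at 7.76, 8.23 and 7.97. So did the sums of macrophage and monocyte (7826, 11914 and 9428), B cell (17, 109 and 58) and skeletal muscle markers (193, 469 and 290). Pfkm, at 7.38, 7.39 and 7.45, differed too little among these samples for an order to be read. In untreated tumors the T cell sums were 375 to 830 in the combination and 331 to 400 in control. The 5 measured macrophage and monocyte markers summed to between 7826 and 11914 in treated combination tumors and between 5532 and 7119 in treated controls, and to between 6463 and 7955 in untreated combination tumors and between 6071 and 6245 in untreated controls. For 3 fibroblast and endothelium markers the sums were 871 to 2693 in treated combination tumors and 124 to 133 in treated controls. In treated combination replicates 1, 2 and 3 they were 1089, 2693 and 871, which is not the order of Slc2a3. In untreated tumors they were 198 to 323 in the combination and 96 to 170 in control. The 2 measured neutrophil markers of 5, with Mpo below the limit in every sample, summed to 161, 673 and 327 in treated combination replicates 1, 2 and 3, again in the order of Slc2a3, and to 70 and 72 in treated controls. In untreated tumors their sums were 93, 74 and 157 in the combination and 51 and 52 in control. Sums of 2 B cell markers (17.0 to 109 against 29.5 to 64 in treated and 62 to 76 against 100 to 207 in untreated tumors, combination against control) and of 2 skeletal muscle markers (193 to 469 against 130 to 257, and 194 to 200.5 against 116 to 219) overlapped between the arms except for the B cell sums in untreated tumors, which were lower in the combination. The list of 4 epithelial markers had 0 members on the panel, so the tumor cell label could not be checked. The part of these cells in the levels of Pfkm and Slc2a3 was not tested.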

How the data were processed

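RNA of 18 mouse tumors was read as a table of 782 probes, of which 768 were panel genes, 6 positive and 8 negative controls. The deposited table holds log2 values. Limma is listed without a role in the submitters' processing notes, and no version or background step is given in the sources used here. From the values, 12 columns were counts times 1 factor per sample (0.736 to 2.58) and 6 held whole numbers, with a pseudocount of 1 throughout and control probes unscaled. Whether the whole-number columns hold counts or rounded scaled counts is not settled. Samples were grouped by title.

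Values were fitted without further scaling by lmFit and eBayes of limma 3.58.1 under R 4.3.3, using all 18 samples, group means and no covariate ( 10 residual and 3.02 prior degrees of freedom). P-values were adjusted by Benjamini-Hochberg over 768 genes in each of 15 comparisons, with a threshold of 0.05. Values at or below the limit in a whole group give only a bound, at the higher of the limit and the value. The other group enters with its deposited mean, so the bound is not firm where that group also has samples below the limit. Adjusted p-values beside such folds are those of the deposited difference. Folds understate changes of genes with few counts. Replicates correlated at 0.928 to 0.990 and differed by more than counting error. Of the panel symbols 767 matched RefSeq. Named genes were the 10 members, listed glycolysis genes that passed, listed regulators, and the 3 genes closest to each member. One result for a listed gene is not reported here. The members and lists were chosen with earlier results of these data known. The procedure was tested on simulated data. Alternatives changed scaling, pseudocount, filter, prior, samples, block or kind of column. Tables used Python 3.11.15, numpy 2.4.6, pandas 2.3.3, scipy 1.17.1 and matplotlib 3.10.9.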

Additional observations from a re-analysis of the deposited data

How the results depend on the processing

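Groups of 2 or 3 samples limit every comparison, and a gene near the negative-control limit, such as Gpi1 or Slc2a3, is limited by background as well. The alternatives with scaled columns only and without HER2 DC1 replicate 2 of both kinds of tumor were chosen after seeing the data. In the combination against control in treated tumors, 2 members were called (Pfkm and Slc2a3, both higher), 3 with median centring (Slc2a3 higher, Slc2a1 and Gpi1 lower, and no longer Pfkm), 1 with only the groups compared, 0 among scaled columns and 0 to 2 when 1 sample was left out, with 0 without either control. In untreated tumors 1 was called, 2 with a pseudocount of 20, with low genes left out and with a trended and robust prior, 3 with the kind of column as a term and without HER2 DC1 replicate 2, 0 with only the groups compared, and 0 to 2 when 1 sample was left out, with 0 without control replicate 2. Against anti-Semaphorin4D 1 was called in treated tumors, 2 with median centring (Slc2a1 and Gpi1, both lower, and no longer Pfkm), 3 with the kind of column as a term, 0 among scaled columns and 0 to 3 when 1 sample was left out, and 1 in untreated tumors, with 0 under median centring, with only the groups compared and among scaled columns, and 0 to 1 when 1 sample was left out. Treated against untreated tumors of the combination arm gave 0, and 0 to 1 when 1 sample was left out. The cause of these changes was not tested.

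Over all genes, 298 were called in treated tumors, 155 with only the groups compared, 0 among scaled columns, 132 and 137 without control replicate 1 or 2 and 195 without combination replicate 2. In untreated tumors 129 were called, 45 with median centring, 48 with housekeeping centring, 198 with the kind of column as a term, 55 among scaled columns, 4 with only the groups compared, 1 without control replicate 2, and 21 and 26 without combination replicate 2 or 3. Higher and lower calls over all genes were 272 and 26 in treated tumors, 104 and 173 with median and 193 and 72 with housekeeping centring. In untreated tumors they were 121 and 8, 26 and 19 with median and 39 and 9 with housekeeping centring. Against anti-Semaphorin4D they were 265 and 18, 86 and 149, and 184 and 56 in treated tumors, and 93 and 3, 20 and 10, and 55 and 4 in untreated tumors, in the same order of scalings.

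Median centring reversed the treated combination difference of Pfkl (-0.42), Gapdh (-0.66), Pgk1 (-0.19), Eno1 (-0.28) and Pkm (-0.30) and the untreated one of Gapdh (-0.0234). Gapdh in treated tumors was also -0.21 with housekeeping centring, -0.15 among scaled columns and -0.15 to 0.25 when 1 sample was left out. Slc2a1 with HER2 DC1 against control, 0.09 in treated tumors, became -0.33 with median and -0.11 with housekeeping centring, -0.40 without HER2 DC1 replicate 2 and -0.50 among scaled columns, and ran from -0.40 to 0.58 when 1 sample was left out. In untreated tumors it was 0.41, -0.13 without HER2 DC1 replicate 2 and -0.13 to 0.94 when 1 sample was left out. Slc2a3 in untreated tumors, combination against control, ran from -0.49 to 0.17. Of 805 values of single genes under alternatives, 689 kept direction and side of the threshold, 85 lost the call, 12 gained it and 19 reversed.

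Same-numbered samples did not deviate together throughout (r from -0.52 to 0.52, over 0.1 in 18 of 57 pairs), but most of these pairs join different arms. Treated and untreated samples of the same arm and number had r from -0.07 to 0.52. In groups of 2 the deviations mirror each other, so these values cannot settle whether samples are paired. The numbers are not taken to pair samples, since the labels do not say that they do. With a replicate block 2 members were called for the combination against anti-Semaphorin4D in treated tumors, 71 genes in place of 129 for the combination against control in untreated tumors, and Pfkm there had 1.33 (adjusted p = 0.0168). Akt1 lost its call there (adjusted p = 0.0825). The block moved no other count of members.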
